A study of Homo sapiens with 10 samples.

Results

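Positions bound by the retinoic acid receptor RARα that carried no peak of the coactivator MAML3 were examined in the neuroblastoma line SK-N-SH, an established human cell line. Peaks of 8 deposited ChIP-seq lists (chromatin immunoprecipitation followed by sequencing) were joined into 10581 sites wherever they shared at least 1 bp. Of these, 2071 held a RARα peak. The sites described here are the 330 (15.9%) that held a peak of at least 1 RARα list and of none of the 4 MAML3 lists. The sites were chosen by the presence and absence of called peaks, so their number and the lists that hold them are a description and have no test. The remaining 1741 RARα sites held a MAML3 peak, and 8510 sites had MAML3 peaks only.

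All groups were SK-N-SH cells that the labels call control cells. They had 24 hours in charcoal-stripped serum medium and were then treated with 1 µM retinoic acid (RA) or with vehicle, called untreated (UT). How long RA was given is not stated in the sources used here. There were 2 libraries for each antibody and treatment, giving RARα lists UT 1, UT 2, RA 1 and RA 2 and 4 MAML3 lists named in the same way. The labels do not say whether replicates were separate cultures, and the spread between lists may be technical. The names of the pair of untreated MAML3 lists share a library number and an index tag, so these may not be independent libraries.

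RARα is a nuclear receptor that pairs with a retinoid X receptor on DNA and switches from repression to activation of its targets when retinoic acid binds. Its response elements are classically 2 copies of a hexamer such as AGGTCA in a direct repeat. MAML3 belongs to the mastermind-like proteins, best known as coactivators in the complex that the cleaved Notch receptor forms with the DNA-binding factor RBPJ. Retinoic acid drives differentiation of many neuroblastoma cells, and RARα is one of the receptors through which it acts.

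The sources used here give no read depth. The RARα lists held 1321 (UT 1), 251 (UT 2), 1103 (RA 1) and 1064 (RA 2) peaks, and the MAML3 lists held between 2222 and 7532. The name of the shortest list, UT 2, carries a tag for merged data that no label explains. With lists of such unequal length, lack of a peak does not show lack of binding. Each peak has 1 score, deposited by the authors with no stated unit and a minimum of about 70, which was used only as a rank (percentile) within its own list. Positions are on the hg19 build and are counted from 1.

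A genome or annotation of hg19 was not used here, so no share of sites at promoters was counted and no site sequence was read. Gene names beside sites below are background from general knowledge of the hg19 map, given after the values were seen. They were put to 32 of the 57 sites that lay in 3 or 4 RARα lists or were gained or lost with RA, 30 of them at the start of the gene and 2 within it. All 32 genes lie on the named chromosome in the RefSeq table, and on the 9 chromosomes with 2 or more of them (27 genes) the genes stand in the order of the sites. No distance to a start of transcription was measured.

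The promoters of genes named at the highest ranked sites are shown because CCAAT, 1 of 15 patterns searched, was frequent in them. The choice of sites did not use it. They are the 250 bases before the start of transcription from RefSeq (build GRCh38.p14), 5′ to 3′ on the gene's own strand, for the first 5 genes in rank order with 1 promoter in that table, all named at a site in all 4 RARα lists. They are promoters of the named genes and not the sequences of the peaks. Capitals mark CCAAT (the CCAAT box, bound by NF-Y), GGGCGG (the GC box, bound by SP and KLF factors) and CCGGAA (the core of ETS sites), each on either strand.
SP2: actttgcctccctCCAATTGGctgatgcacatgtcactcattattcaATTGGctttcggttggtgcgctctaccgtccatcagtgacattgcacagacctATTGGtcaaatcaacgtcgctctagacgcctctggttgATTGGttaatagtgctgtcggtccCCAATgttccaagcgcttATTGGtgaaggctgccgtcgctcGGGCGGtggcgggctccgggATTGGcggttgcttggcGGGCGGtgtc
FLAD1: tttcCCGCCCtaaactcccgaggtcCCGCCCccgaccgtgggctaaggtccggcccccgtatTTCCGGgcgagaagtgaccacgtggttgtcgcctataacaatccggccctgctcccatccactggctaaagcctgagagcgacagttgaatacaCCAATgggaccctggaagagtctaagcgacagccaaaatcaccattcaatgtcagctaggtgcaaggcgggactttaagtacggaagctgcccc
RFX1: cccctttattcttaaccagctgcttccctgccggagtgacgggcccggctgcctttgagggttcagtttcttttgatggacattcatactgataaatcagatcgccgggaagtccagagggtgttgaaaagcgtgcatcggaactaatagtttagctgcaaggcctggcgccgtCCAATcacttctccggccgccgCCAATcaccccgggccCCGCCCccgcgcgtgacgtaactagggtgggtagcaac
KHSRP: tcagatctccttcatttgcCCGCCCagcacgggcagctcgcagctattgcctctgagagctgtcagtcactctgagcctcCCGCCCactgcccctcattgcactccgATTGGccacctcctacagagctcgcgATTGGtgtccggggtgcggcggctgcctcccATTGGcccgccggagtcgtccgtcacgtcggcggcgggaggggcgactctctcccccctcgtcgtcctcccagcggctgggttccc
ZNF595: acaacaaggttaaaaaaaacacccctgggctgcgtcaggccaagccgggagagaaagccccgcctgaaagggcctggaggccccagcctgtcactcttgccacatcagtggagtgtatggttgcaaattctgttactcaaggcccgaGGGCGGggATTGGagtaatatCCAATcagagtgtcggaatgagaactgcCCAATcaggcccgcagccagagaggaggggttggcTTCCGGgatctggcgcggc

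The SP2 promoter held 8 CCAAT matches, that of FLAD1 held 1, that of RFX1 held 2, and those of KHSRP and ZNF595 held 3 each. Matches were counted on both strands, and overlapping ones separately. Of the 30 genes named at their start, 20 had exactly 1 promoter in the table. A CCAAT match was present in 16 of these 20 (80%, 95% Wilson interval 58.4 to 91.9), against 32.0% of all 35114 promoters of this length and 32.7% of the protein-coding ones. At least 2 matches were present in 12 of the 20 (60%), against 9.53% of all promoters, and at least 3 in 9 (45%), against 2.93%. Among genes named at sites in 3 or 4 RARα lists 12 of 13 promoters had a match, with SPATC1L the exception, and among those named at sites gained or lost with RA 4 of 7 had one. The GC box was present in 14 of the 20 (70%, interval 48.1 to 85.5), against 42.6% of all promoters and 53.7% of the protein-coding ones. CCGGAA was in 5 (25%, interval 11.2 to 46.9), against 14.5% of all promoters and 17.9% of the protein-coding ones. The GC box interval includes its protein-coding share, and the CCGGAA interval includes both of its background shares. The intervals cover counting error only. These 20 genes are those recognised by name, not all of the sites, and the shares were not tested. The numbers of matches and the protein-coding shares were added after the CCAAT share was seen.

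The receptor half-sites were found at shares whose intervals include those of all promoters. AGGTCA was in 1 of the 20 (5%, interval 0.888 to 23.6, that of DCAF7), against 12.1% of all promoters. GGTTCA was in 2 (10%, interval 2.79 to 30.1, RFX1 and ACTR1A), against 7.16%. Direct repeats of the 2 hexamers spaced by 1, 2 or 5 bases occurred in 0 of the 20 and in at most 0.0228% of all promoters. TGGGAA, a core of RBPJ sites, was in 1 of the 20 (5%, against 20.8%), and the E-boxes CAGCTG and CATCTG were in 2 and 1 (10 and 5%, against 13.98 and 12.15%). The NRF1 motif, the YY1 motif and TGACTCA with its reverse complement TGAGTCA (AP-1) were in 0 of the 20, and in 1.03, 0.373 and 4.20% of all promoters. The GC content of the 20 ran from 45.6 to 79.6% with a median of 58.4%, against a median of 58% over all promoters. A match is a run of letters and does not show that a factor is bound, and its absence speaks only for this window.

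Most of the 330 sites were seen once. One RARα list held 240 of them (72.7%), 2 lists held 48, 3 lists held 21 and all 4 lists held 21. The share of RARα sites without MAML3 was 21.2% (Wilson interval 18.9 to 23.6) among the 1134 sites in 1 list. It was 10.5% (8.01 to 13.7) of 457 in 2 lists, 6.23% (4.11 to 9.34) of 337 in 3 lists and 14.7% (9.81 to 21.4) of 143 in all 4. The share thus did not fall steadily with the number of lists, and it also differed with which lists held the site. Among sites in 3 lists it was 4.14% of the 290 lacking in UT 2 and 27.3% of the 22 lacking in RA 2. It was 27.3% of the 11 lacking in UT 1 and 0% of the 14 lacking in RA 1. RA 1 alone held 102 of the sites, UT 1 alone 67, RA 2 alone 56 and UT 2 alone 15. These were 31.4% of the 325 RARα sites in RA 1 alone and 13.5% of the 496 in UT 1 alone. They were 19.6% of the 286 in RA 2 alone and 55.6% of the 27 in UT 2 alone.

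Sites in 3 or 4 lists numbered 42 of the 480 such RARα sites (8.75%, interval 6.54 to 11.6) and lay on 16 chromosomes. Their mean score percentile had a median of 65.4 (range 16.5 to 97.4), against 68.2 (9.16 to 100) for the 438 RARα sites in 3 or 4 lists with MAML3, and 31 of the 42 were above 50. Sites in 1 list stood low in both classes, with medians of 23.2 without and 31.7 with MAML3. The recurrent sites were 131 to 550 bp wide, with a median of 364 bp.

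**Figure D1:**
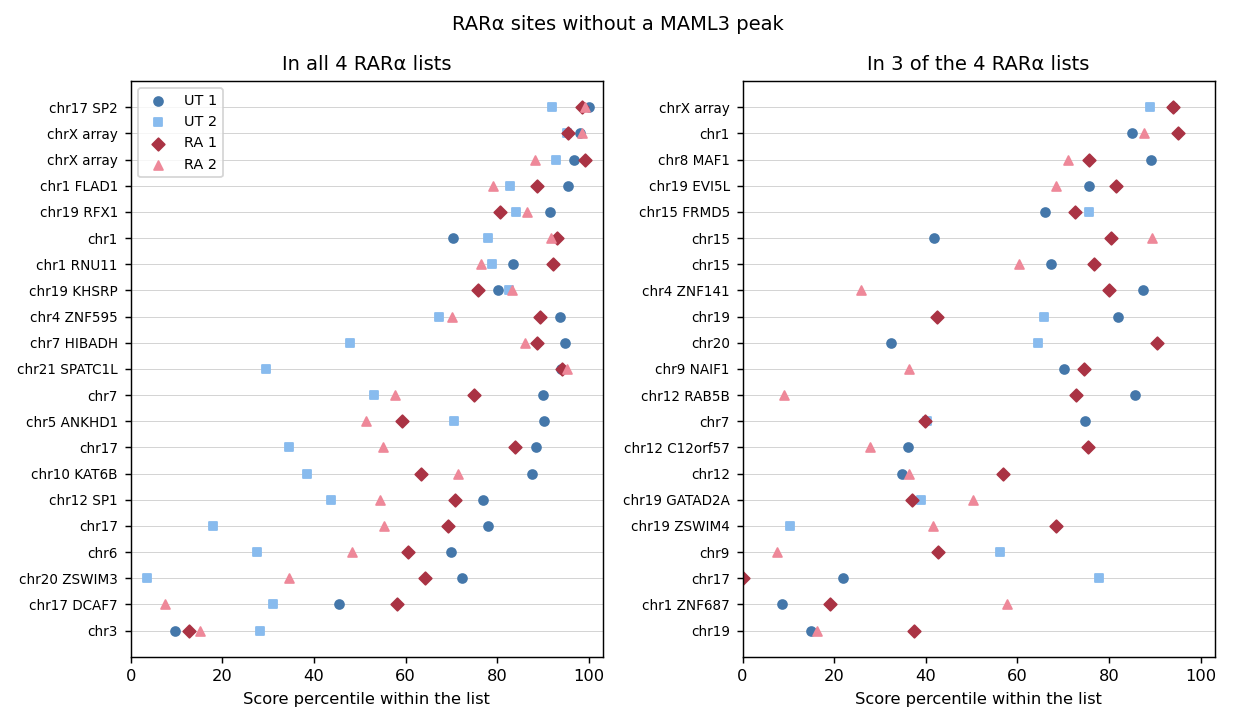
Score percentile within each RARα list (x axis, 0 to 100) for the 21 sites without MAML3 in all 4 lists (left) and the 21 in exactly 3 lists (right), ordered by their mean. Each row is a site labelled by chromosome and, where recognised, by gene, and each point is 1 list (UT 1, UT 2, RA 1, RA 2). The SP2 site lies between 92.0 and 99.9 in the 4 lists.

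The highest ranked site lay on chr17:45973185-45973721, at the start of SP2, a zinc finger transcription factor of the Sp family. Its score was 1136 in UT 1, 399 in UT 2, 850 in RA 1 and 747 in RA 2, which are percentiles 99.9, 92.0, 98.5 and 99.1. Untreated and RA percentiles overlapped, and the nearest MAML3 peak was 85844 bp away. A pair of sites on chromosome 19 stood among the 10 highest ranked in all 4 lists. The start of RFX1, a winged-helix factor that binds X-box DNA, lay at chr19:14117150-14117522, with scores of 306, 239, 216 and 287 in the same list order (percentiles 91.4, 84.1, 80.5 and 86.5). The start of KHSRP, which binds AU-rich mRNA and promotes its decay, lay at chr19:6425012-6425499, with scores of 205, 212, 194 and 249 (percentiles 80.2, 82.5, 75.7 and 83.2). All 8 percentiles lay between 75.7 and 91.4, and untreated and RA values overlapped at both sites.

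FLAD1 and RNU11 both ranked above KHSRP. FLAD1, which makes the cofactor FAD, stood at chr1:154955550-154955982 with scores of 423, 213, 290 and 227. RNU11, the gene of the U11 small nuclear RNA of the minor spliceosome, stood at chr1:28975045-28975494 with 224, 179, 366 and 206. At both, untreated and RA percentiles overlapped. ZNF595, a zinc finger gene near the end of the short arm, stood at chr4:52950-53299 with 348, 139, 304 and 173. HIBADH, an enzyme of valine breakdown, stood at chr7:27702497-27702891 with 405, 99.7, 291 and 281. For these 2 the percentile was lowest in UT 2, at 67.3 and 47.8. Of the sites without a gene name, that at chr1:17066995-17067494 scored 164 and 175 in the untreated lists and 390 and 368 in the RA lists. Its percentiles were 70.3 and 78.1 untreated and 93.1 and 91.8 with RA, so the groups did not overlap there. The others, on chromosome X, are given below with their array. Lower in rank, named after their values were seen, were the starts of KAT6B (a histone acetyltransferase), SP1 (another Sp factor), ANKHD1, SPATC1L, ZSWIM3 and DCAF7 (a WD40 adaptor protein).

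Among the 10 highest ranked sites in exactly 3 lists, 4 were given a gene name. UT 2, the shortest list, was the one that lacked the site for MAF1, a repressor of RNA polymerase III, at chr8:145159076-145159453 (scores 272, 194 and 176 in UT 1, RA 1 and RA 2). It was also the one that lacked EVI5L at chr19:7894661-7895141 (184, 220 and 165) and the zinc finger gene ZNF141 at chr4:331250-331699 (258, 211 and 85.9). FRMD5, at chr15:44487419-44487776, was lacking in RA 2 and scored 152, 164 and 181 in the others. Of the 21 sites in exactly 3 lists, 12 were lacking in UT 2, 6 in RA 2 and 3 in UT 1. Of all 337 RARα sites in exactly 3 lists, 290 were lacking in UT 2, 22 in RA 2, 11 in UT 1 and 14 in RA 1. Lacking UT 2 was thus the usual pattern of RARα sites in 3 lists, and more so than among these 21. Further sites of this class, at chr1:16993195-16993544, chr15:37100599-37100998, chr15:74838499-74838848, chr19:41879950-41880349 and chr20:62918452-62918779, were given no gene name. Of the 10 highest ranked, that at chr15:37100599-37100998 lay 676 bp from a MAML3 peak. NAIF1, RAB5B (an early endosome GTPase), C12orf57, GATAD2A (a subunit of the NuRD repressor complex), ZSWIM4 and ZNF687 followed lower in rank, named after their values were seen.

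The comparison of treatments asked which of these sites appeared or disappeared with RA. Gained sites were those in both RA lists and no untreated list, and lost sites those in both untreated lists and no RA list. Of the 330 sites, 13 were gained (3.94%, interval 2.32 to 6.62) and 2 lost (0.606%). Over all RARα sites the background was 5.6% gained (116 of 2071) and 0.531% lost (11 of 2071). Both background shares lay within the intervals of the 330 (0.166 to 2.18% for loss). With all lists cut to equal length, 4 of 102 sites were gained and 5 lost. With the RARα lists alone cut, 1 of 63 was gained and 5 lost. The balance among these sites thus turned, but counts over all RARα sites at these lengths are not given here. Whether the turn is particular to these sites was not tested. With 2 lists against 2, the smallest two-sided p of an exact permutation test is 0.33, and no test was made. The counts depended on single lists. Without UT 1, 25 sites were gained and 17 lost. The counts were 16 and 69 without UT 2, 70 and 8 without RA 1, and 115 and 2 without RA 2, where 1 list stands for a treatment. Counts over all RARα sites with a list left out are not given here either.

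The gained sites had no peak in either untreated list, by definition. The highest ranked with a gene name, at chr20:46205352-46205751, lay within NCOA3, a coactivator of nuclear receptors, with scores of 155 in RA 1 and 173 in RA 2 (percentiles 66.0 and 70.3). At the start of NUMB, an inhibitor of Notch signalling, chr14:73925348-73925672 scored 85.1 and 97.6 (percentiles 23.2 and 36.4). When peaks were joined only at a 50% overlap, this site was in 1 RARα list and so was not gained. This site lay 1883 bp from a MAML3 peak, and that in NCOA3 lay 52890 bp from one. KDM4B (a histone H3K9 demethylase), the cathepsin genes CTSA and CTSH and ACTR1A (a dynactin subunit) were among the first 10 gained sites. Others of the 10, with no gene name, lay at chr7:106499447-106499833, chr17:70348172-70348484 and chr20:23314714-23315012. TCF3, an E-protein partner of neural bHLH factors, and SKIDA1 ranked lower and were named after their values were seen.

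Of the lost sites, that at chr5:151151099-151151492, at the start of G3BP1 (a stress granule protein), scored 225 in UT 1 and 70.8 in UT 2 (percentiles 83.8 and 2.59). It stood high in one untreated list and near the bottom of the other. Of the RARα sites in both untreated lists, 29 of 190 (15.3%, interval 10.8 to 21.1) had no MAML3 peak in any list. Of those in both RA lists, 49 of 560 (8.75%, 6.68 to 11.4) had none. The 143 sites in all 4 lists, 21 of them without MAML3, are in both sets. The sets are thus not separate and sites are not replicates, so these intervals cannot show whether the treatments differ. The 171 sites that only RA lists held made up 51.8% of the 330, and such sites made up 31.9% of the RARα sites with MAML3. Of these 171, 102 were in RA 1 alone and 56 in RA 2 alone. Sites that only untreated lists held made up 25.5% of the 330 and 25.8% of the RARα sites with MAML3. Sites in both RA lists made up 14.8% of the 330 and 29.4% of those with MAML3. The untreated lists include the shortest list, UT 2, and a link of these shares with RA was not tested.

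Chromosome 19 was the place where sites without MAML3 outnumbered the rest. It held 47 RARα sites, of which 35 (74.5%, interval 60.5 to 84.7) had no MAML3 peak, and chromosome 17 held 85, of which 21 (24.7%, 16.8 to 34.8) had none. On the chromosomes other than 17 and 19 the share was 14.1% (274 of 1939, 12.7 to 15.8). Among sites in 3 or 4 lists, 7 of 9 on chromosome 19 and 5 of 29 on chromosome 17 lacked MAML3. Chromosome 20, at 30.8% of 39 sites (18.6 to 46.4), was the next highest, and chromosomes 14 (25.9%) and 22 (25%) were also at or above the share of chromosome 17. The MAML3 lists themselves were thin on chromosome 19, which held 0.315 to 0.451% of their peaks, against 1.82 to 2.54% of the peaks in the RARα lists. The part this plays in the share without MAML3 was not tested.

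**Figure D2:**
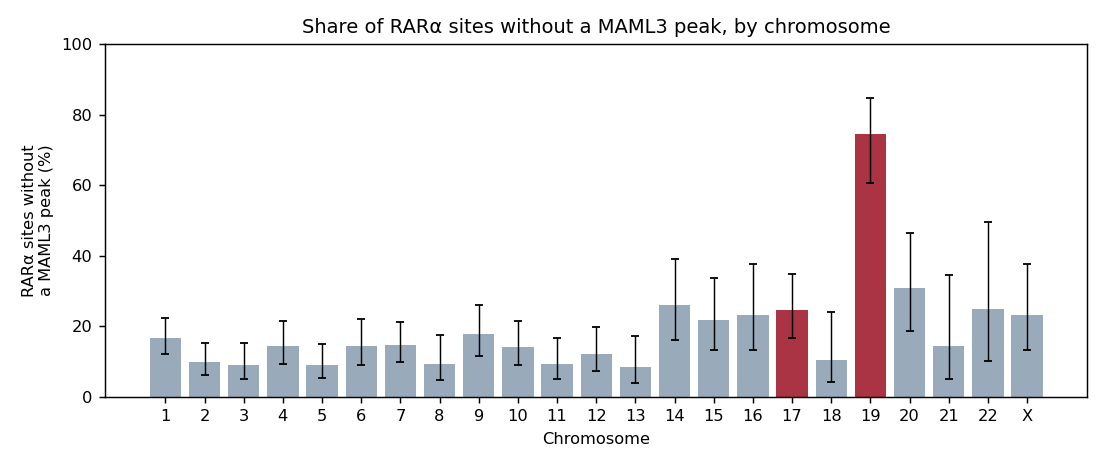
Share of RARα sites without a MAML3 peak (y axis, percent) on each chromosome (x axis; Y, with 1 RARα site, is left out). Bars are shares, lines are 95% Wilson intervals, and chromosomes 17 and 19 are in red. Chromosome 19 reaches 74.5%, and its interval overlaps that of no other chromosome plotted.

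List by list, the share of RARα peaks on chromosome 19 was higher at sites without MAML3 than at sites with it in 4 of 4 lists. It was 14.1 against 0.422% in UT 1, 9.26 against 0.508% in UT 2, 11.7 against 0.758% in RA 1 and 13.7 against 0.528% in RA 2. The mean difference was 11.6 ± 2.24 percentage points (SD, n = 4 lists; two-sided exact sign-flip permutation p = 0.13, the smallest 4 lists can give). No interval of the first class overlapped one of the second. For chromosome 17 the differences were smaller, at 3.87, 1.97, 1.94 and 4.75 points (mean 3.13 ± 1.40, SD, n = 4; exact p = 0.13), and the intervals of the 2 classes overlapped within each list. These chromosomes were picked with earlier results of these data known, and sites in several lists count in each, so the 4 differences are not independent and the p-values lend no support. Chromosomes 17 and 19 together gave a mean difference of 14.8 ± 3.52 points (SD, n = 4; exact p = 0.13).

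**Figure D3:**
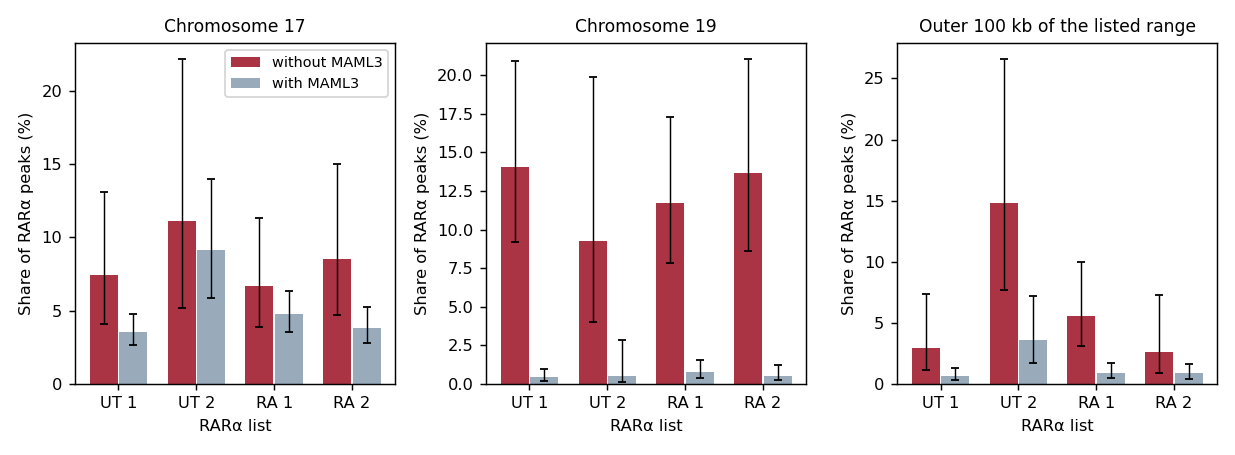
Share of RARα peaks (y axes, percent) on chromosome 17, on chromosome 19 and in the outer 100 kb of the listed range, for each RARα list (x axes), at sites without (red) and with (grey) a MAML3 peak. Bars are shares and lines 95% Wilson intervals. On chromosome 19 the shares without MAML3 lie between 9.26 and 14.1% and those with MAML3 below 1%.

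On chromosome 19 a site without a gene name at chr19:23433131-23433560 ranked between RFX1 and KHSRP and was in UT 1 and RA 1 only. After EVI5L, the site at chr19:42773111-42773410 was in RA 1 only. GATAD2A, ZSWIM4, KDM4B and TCF3 are the other chromosome 19 genes named above. On chromosome 17 SP2 was followed by the gained site at chr17:70348172-70348484, a site in RA 2 only at chr17:1979185-1979384, and sites in all 4 lists at chr17:26368372-26368722 and chr17:74667756-74668171. Sites on these chromosomes ran from the highest rank of all to peaks of 1 list.

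Chromosome ends held few of the sites. The ends were set by the outermost peak of any list, since chromosome lengths were not used, and such a range need not reach the true end. In the outer 100 kb of that range lay 12 of the 330 sites (3.64%, interval 2.09 to 6.25) and 11 of the 1741 RARα sites with MAML3 (0.632%, 0.353 to 1.13). Of the 12, 11 were themselves the outermost peak and so set the range. With the range set by the MAML3 lists alone the counts were 17 and 16, and in the first 100 kb of the coordinates they were 3 and 3. Per list, the share of peaks in the outer 100 kb was higher without than with MAML3 by 2.29, 11.3, 4.72 and 1.72 points in UT 1, UT 2, RA 1 and RA 2 (mean 5.0 ± 4.37, SD, n = 4; exact sign-flip p = 0.13). Chromosome ends, too, were picked with earlier results of these data known, and sites in several lists count in each. Since the sites also largely set the range themselves, this p-value lends no support. Without UT 2 the mean difference was 2.91 points, without MAML3 UT 1 it was 8.34, and over the first 100 kb of the coordinates it was 1.33.

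ZNF595 at chr4:52950-53299 and SPATC1L at chr21:47604262-47604761 were the highest ranked end sites, both in all 4 lists. They were followed by chr20:62918452-62918779 (UT 1, UT 2 and RA 1), chr9:139780602-139780846 (RA 1 only) and chr13:20437846-20438002 (UT 2 and RA 1). Lower in rank, and named after its values were seen, the site at chr9:10196-10419 was in UT 2, RA 1 and RA 2 with scores of 109, 105 and 74.2. UT 2, the shortest list, had the largest part of its MAML3-free peaks in the outer 100 kb, 8 of 54 (14.8%). It also had the largest part of its peaks with MAML3 there, 7 of 197 (3.55%), against 0.675 to 0.866% in the other lists.

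A regular array on chromosome X gave 3 of the sites. From 114960310 to 115004810 on that chromosome, 16 RARα sites stood at a median spacing of 2976 bp (2243 to 3026 bp), in the region known as the DXZ4 macrosatellite, a tandem repeat bound by CTCF on the inactive X. Of these, 15 were in all 4 RARα lists. The members were chrX:114978259-114978675 (scores 555, 449, 452 and 656 in UT 1, UT 2, RA 1 and RA 2), chrX:115004261-115004810 (503, 408, 928 and 308) and chrX:115002110-115002475 (365, 339 and 406, and no peak in RA 2). The first and second of these ranked just below SP2 among sites in all 4 lists, and the last ranked highest among sites in 3 lists. The other 13 array sites held peaks in 1 (6 sites), 2 (2), 3 (2) or 4 (3) MAML3 lists, with MAML3 scores from 80.6 to 204, so the array was divided by the rule. Whether reads of such repeats were counted once or at several places is not stated in the labels used here.

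RARα peaks without MAML3 were narrower in each full list, and the mean difference in median score percentile was -14.1. The score difference depended on the lists' make-up: it was -0.73 with all lists at equal length, -2.87 with the RARα lists alone at equal length, and 0.0114 in the upper 50% of scores. Their median width was 207 against 250 bp in UT 1, 172 against 214 bp in UT 2, 200 against 250 bp in RA 1 and 196 against 239 bp in RA 2. The median score percentile was 40.2 against 51.2, 42.0 against 53.2, 35.9 against 52.6 and 34.2 against 51.6 in the same order. Width and score come from the same peak calls as the rule and are a description. Peaks without MAML3 made up 10.2% of UT 1, 21.5% of UT 2, 16.2% of RA 1 and 11% of RA 2.

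**Figure D4:**
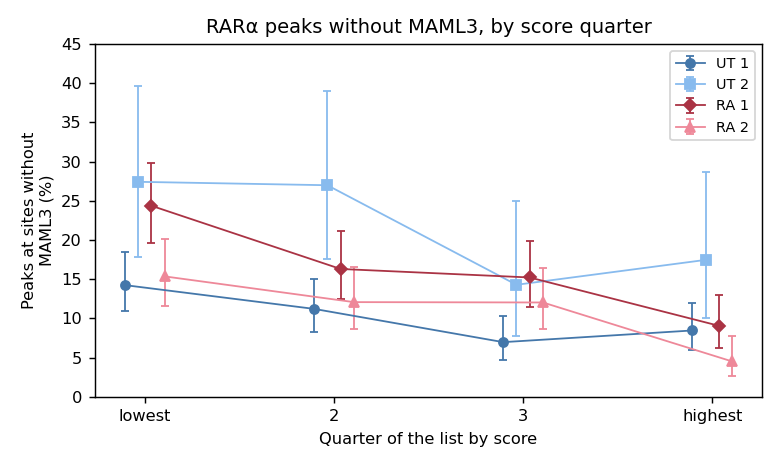
Share of RARα peaks at sites without MAML3 (y axis, percent) in 4 score classes of equal size in each list (x axis, lowest to highest). Points are lists and lines 95% Wilson intervals. The share is between 14.2 and 27.4% in the lowest class and between 4.51 and 17.5% in the highest.

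With each list cut by score into 4 classes of equal size, 14.2% (UT 1), 27.4% (UT 2), 24.4% (RA 1) and 15.4% (RA 2) of the peaks in the lowest class had no MAML3. In the highest class the shares were 8.46, 17.5, 9.06 and 4.51%. The highest class was below the lowest in each of the 4 lists, and the intervals of these classes were apart in RA 1 and RA 2 and overlapped in UT 1 and UT 2. The peaks at SP2, FLAD1, RFX1, RNU11, KHSRP and 2 of the array sites were in the highest class of every list.

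Whether the sites recurred was asked by looking up the RARα sites of 3 lists in the fourth. The sites were those merged over all lists, so the fourth list had helped to draw them and the lookup is not independent. Sites with MAML3 also span their MAML3 peaks, and a RARα peak of the fourth list that touched only that part counted as held. The part this plays in the shares was not tested. Of sites without MAML3, 25.9% were held by UT 1, 12.1% by UT 2, 33.8% by RA 1 and 21.9% by RA 2. For sites with MAML3 the shares were 55.4, 10.3, 44.1 and 45%. The difference was negative in 3 of 4 lists and 1.77 points positive in UT 2 (mean -15.3 ± 13.9 points, SD, n = 4; two-sided exact sign-flip permutation p = 0.25), and 4 lists cannot give a p below 0.13, so the test could not settle whether the classes differ. With all lists cut to equal length the mean was 1.22 points.

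Single MAML3 lists added peaks at few of the sites. Of RARα sites without a peak in 3 of the MAML3 lists, the fourth added a peak at 10 of 340 (2.94%, MAML3 UT 1), 34 of 364 (9.34%, UT 2), 29 of 359 (8.08%, RA 1) and 33 of 363 (9.09%, RA 2), a mean of 7.36%. With 1 MAML3 list dropped beforehand and the others left out in turn, the mean was 10.8% without UT 1, 11.5% without UT 2, 16.8% without RA 1 and 15.7% without RA 2. The 106 RARα sites with a peak in 1 MAML3 list had a median MAML3 score percentile of 32.9. RARα sites with 2, 3 and 4 MAML3 lists numbered 208, 466 and 961.

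By the rule, each of the sites lay apart from any MAML3 peak, and no background distance was measured. The nearest lay at a median of 172 kb (quartiles 47.5 and 431 kb), within 1 kb of 19 sites (5.76%) and within 10 kb of 50 (15.2%). For the 42 sites in 3 or 4 lists the median was 270 kb, with 1 within 1 kb and 4 within 10 kb. At the edge of the rule, 3 sites lay 3, 5 and 6 bp from a MAML3 peak, at chr2:227900285-227900329, chr4:154065000-154065095 and chr10:94837608-94837674, each in 1 RARα list. Just outside it, RARα and MAML3 peaks overlapped by 4, 14 and 17 bp at chr5:83567349-83567798, chr20:46927587-46928090 and chr15:31664809-31665099.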

How the data were processed

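Each of the 8 peak lists holds a chromosome, start, end, peak name and 1 score per peak, as deposited by the authors with no header. BWA 0.5.9, bedtools, MACS and the hg19 build are named in the submitters' processing notes. The sources used here do not give the threshold, the control, or what the filtering and intersection in the list names refer to. The 2 input samples were not analysed here. No read depth is known, so no precision was set from it.

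Peaks overlapping by 1 bp were merged over all lists (Python 3.11.15, numpy 2.4.6, pandas 2.3.3, scipy 1.17.1). Shares have 95% Wilson intervals. Differences between site classes were tested over the 4 RARα lists with a two-sided exact sign-flip permutation test. The merging and the test were checked on simulated lists. Sites were not treated as replicates.

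Sites named are the 10 highest ranked by mean score percentile in all 4 lists, in 3 lists, gained and lost, and 5 on chromosome 17, on chromosome 19 and at chromosome ends. Of these, 2 sites are not reported here. Planned promoter shares, gene lists, and motifs and GC content of sites were not run, since an hg19 annotation was not used here. RefSeq promoters of named genes were searched instead, an addition made after the data were seen. Members and lists were chosen with earlier results of these data known. Alternatives were a 50% overlap, a 1 kb gap, no MAML3 within 10 kb, the upper 50% of scores, equal lengths (251 and 2222 peaks), each library left out, and ends or the array left out.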

Additional observations from a re-analysis of the deposited data

How the results depend on the processing

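The share of peaks on chromosomes 17 and 19 together was higher without than with MAML3 by 10.9 to 16.1 points under every alternative reported. Chromosome 17 alone was less stable. In the upper 50% of scores its mean difference was 3.06 ± 4.92 points (SD over 4 lists, two-sided exact sign-flip permutation p = 0.375). For chromosome 19 alone it was 7.88 ± 2.19 points there. For all lists at equal length, the setting that also shortens the MAML3 lists, this share is not reported here. The share in the outer 100 kb was higher without MAML3 under every alternative run for it, by 1.33 to 9.32 points. With 4 lists the exact p cannot go below 0.13. No paired analysis was possible because the comparison of RA with untreated lists by site comes from no test. The tested differences were taken within each list. The number of sites ranged from 229 to 368 with each library left out (13.1 to 17.7% of RARα sites). Those in 3 or 4 lists ranged from 21 to 55 (7.62 to 15.9%), gained sites from 13 to 115 and lost sites from 2 to 69. With a RARα list left out only 3 remain, so the class of 3 or 4 lists then means all 3. That is a stricter criterion than in the main setting, and 1 list then stands for a treatment in the gained and lost counts. The mean share that the left-out MAML3 list added ranged from 7.25 to 16.8%, the width difference from -45.3 to -33.6 bp and the score percentile difference from -15.1 to -11.6. In the upper 50% of scores there were 167 sites (16.3% of RARα sites), of which 43 were in 3 or 4 lists (17.2% of RARα sites in 3 or 4 lists), with a width difference of -20 bp and a score percentile difference of 0.0114, reversed. With all lists at equal length there were 102 sites (18.9%), 27 in 3 or 4 lists (20.1%), 4 gained, 5 lost, a width difference of -51.8 bp and a score percentile difference of -0.73. The left-out RARα difference was then 1.22 points, reversed, and the left-out MAML3 list added 11.4%. With the RARα lists alone at equal length there were 63 sites (11.7%), 13 in 3 or 4 lists, 1 gained, 5 lost, and differences of -61.3 bp and -2.87 percentiles. The width difference was -48.4 bp with a 50% overlap and with no MAML3 peak within 10 kb, where 13.5% of RARα sites remained. Chromosomes 17 and 19 left out, an alternative added after the data were seen, gave 14.1%. Shortened lists hold fewer peaks by construction, and the causes of the other changes were not tested. Of 40 named sites, 27 still lacked MAML3 and held RARα at equal length, and 33 to 40 under the other alternatives.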
